A study of Mus musculus with 30 samples.

Results

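The replication-dependent histone genes were followed in single pre-implantation mouse embryos of 3 Dis3 genotypes. Members were all genes of the count files whose GENCODE symbol starts with Hist1, Hist2, Hist3 or Hist4, and the rule found 70 of 55487 genes. Of these, 56 were Hist1, 10 Hist2, 3 Hist3 and 1 Hist4, on chromosomes 13, 3, 11 and 6. They comprised 6 H1, 20 H2A, 19 H2B, 12 H3 and 13 H4 genes, and 3 of the 70 were annotated as pseudogenes. The embryos came from crosses of Dis3 heterozygous parents and were collected at embryonic day (E) 2.5 or 2.75. Null embryos carry a CRISPR/Cas9 deletion of Dis3 exons on both alleles, het embryos on one, and wild-type (WT) embryos on none. Each library is 1 embryo, genotyped from its own genomic DNA after the RNA was captured on oligo-dT beads. At E2.5 the groups held 6 embryos of WT, 2 of het and 4 of null genotype, and at E2.75 they held 3, 5 and 3. No drug or transgene was used in the embryos. Dis3 encodes a 3′ to 5′ ribonuclease that also cuts RNA internally and works with the nuclear exosome.

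Replication-dependent histone genes supply the core histones H2A, H2B, H3 and H4 and the linker histone H1, which package newly made DNA in S phase. Their transcripts are unusual because most have no intron and end in a conserved stem-loop, bound by the stem-loop binding protein SLBP, in place of a poly(A) tail. When such a transcript is not cut after the stem-loop, or is oligoadenylated during decay, it can acquire a tail. Oligo-dT capture therefore recovers only the part of histone RNA that carries adenosines, so the levels given here are of that part and not of all histone RNA.

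The stem-loop was present in nearly all members and is shown because it sets how these transcripts end. A 16-base match to its consensus lay within 300 bases of the stop codon in 62 of the 70 members (88.6%), against 6 of 21642 other protein-coding genes (0.0277%). The sequences below read 5′ to 3′ on the gene's strand (GRCm38), with the 16 bases of the stem-loop in capitals.
Hist1h4i: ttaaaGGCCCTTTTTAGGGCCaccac
Hist2h4: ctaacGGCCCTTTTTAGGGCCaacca
Hist1h4c: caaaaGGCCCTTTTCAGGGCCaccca
Hist1h1c: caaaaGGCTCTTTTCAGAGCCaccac
Hist1h2bb: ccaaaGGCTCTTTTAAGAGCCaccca
Hist1h3g: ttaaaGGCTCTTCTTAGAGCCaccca
The Hist1h4i stem-loop spans chr13:22040966-22040981 on the minus strand, and the Hist1h2bb stem-loop spans chr13:23747203-23747218 on the plus strand. Among the 62 matches there were 8 different stem-loops. The most frequent, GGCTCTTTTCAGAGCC, occurred in 38 genes of the H1, H2A, H2B and H3 classes and in no H4 gene. H4 genes had their own stems: 8 carried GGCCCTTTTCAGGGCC and 2, Hist1h4i and Hist2h4, carried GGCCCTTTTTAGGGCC. The distance from stop codon to stem-loop was 21 to 58 bases, with a median of 31. The annotated gene ran 100 bases or more beyond the stem-loop in 24 members and ended near or before it in 38. For Hist1h4i the annotation went on for 330 bases, for Hist1h1c for 840 and for Hist1h1d for 4884, whereas for Hist1h2bb it stopped after 23. Levels here and below are CPM, counts relative to library size after scaling by the trimmed mean of M-values (TMM). Per kilobase of exon, the 24 extended members had a median of 1.32 CPM and the 38 others 0.812. The share of exon sequence that could be counted, described next, also differed, with medians of 73.0% and 30.5%. Its part in these levels was not tested.

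How much of each gene could be counted differed widely. Many histone copies are nearly identical, and the counting kept uniquely mapped reads. Exons of 26 members also shared sequence with another annotated gene. Hist2h2bb, for example, had 100% unique windows, but its exon lay wholly within those of other genes and 0% of its windows were countable. The share of 50-base exon windows that were unique in the genome and free of another gene's exons had a median of 45.5% over the 70 members. It was 98.8% for H1 genes and 26.6% for H2A genes. In all, 9 members had 0 counts in all 23 embryos, and 8 of these 9 had no countable window. Another gene without a countable window, Hist1h2ao, had 2 counts. A member listed at 0 was therefore mostly a gene that this counting could not see. Over the 70 members the countable share and the total count had a Spearman correlation of 0.73, given as a description since the genes share libraries. Exon length and total count had one of 0.49.

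**Figure D1:**
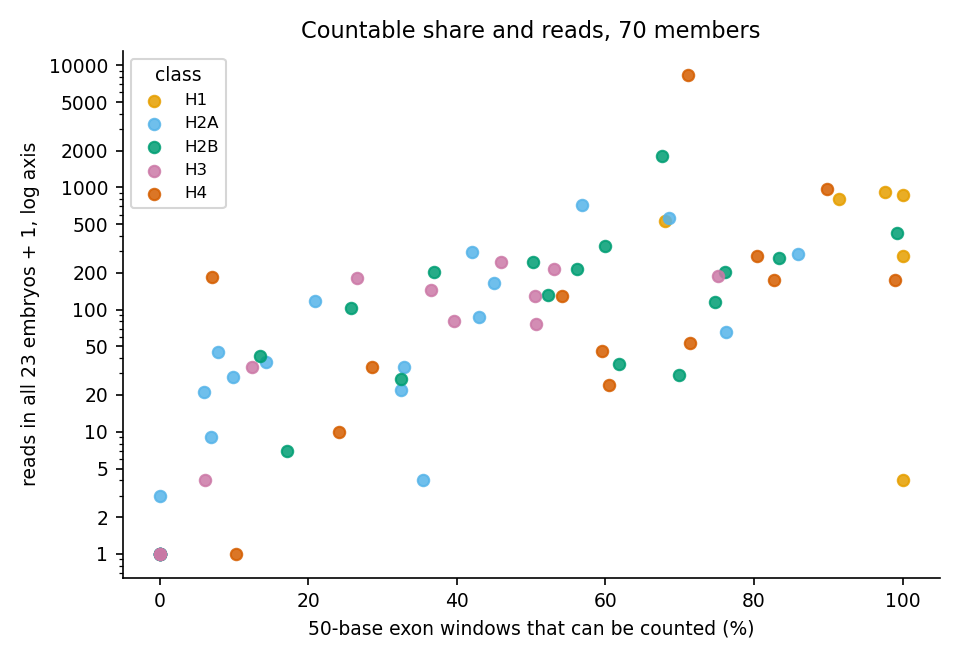
Share of 50-base exon windows that could be counted (x axis, percent) against reads in all 23 embryos plus 1 (y axis, log scale) for the 70 members, coloured by histone class. The 9 members at 0% lie at the bottom left and Hist1h4i, with 8379 reads at 71.1%, is the highest point.

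Libraries held 1690192 to 14015980 gene counts, of which 234 to 3036 fell on members. The share of reads not wholly inside any gene's annotated exons was 32.3 to 43.9% in null embryos and 20.99 to 33.4% in the others. The E2.75 null replicates 1 and 2 were shallow, with 1914128 and 1690192 counts. Dis3, counted over the whole gene and so also over exons that were not deleted, had 0 to 21.5 CPM in null, 30.4 to 59.2 in het and 18.0 to 147 in WT embryos, so the library labelled E2.5 WT replicate 6 lay in the null range. Markers of the embryo itself, a list of 9, summed to 5722 CPM or more in every library. Defining markers of cumulus cells summed to at most 18.9 CPM, of maternal blood to at most 6.21, of sperm to at most 3.66 and of fibroblasts and oviduct to at most 12.4. The highest of the cumulus, sperm and fibroblast values were in null embryos, and their part in the results was not tested.

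Hist1h4i, a gene for histone H4, had the highest mean level of the 70 members, both as CPM and per kilobase. In WT embryos at E2.5 it had 7.03, 3.63, 28.9, 44.0, 67.8 and 9.80 CPM, and at E2.75 it had 20.2, 2.78 and 7.20. The 2 het embryos of E2.5 had 14.6 and 8.54 CPM, and the 5 of E2.75 had 16.6, 171, 2.16, 5.85 and 13.4. The 4 null embryos of E2.5 had 19.9, 170, 267 and 499 CPM, and the 3 of E2.75 had 229, 262 and 56.8. Null embryos were high as a group and all 7 lay above the het and the WT medians, but the groups overlapped. E2.5 null replicate 1 and E2.75 null replicate 3 lay within the WT range, and E2.75 het replicate 2 lay among the null embryos. Hist1h4i took 16.2 to 70.9% of member counts in null embryos (median 47.4%) and a median of 20.8% in WT and 16.5% in het embryos.

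Tests were fitted over all genes with edgeR's quasi-likelihood test, and a call needed both a log2 fold change beyond 1 in size and a Benjamini-Hochberg adjusted p below 0.1. With the stages merged, Hist1h4i rose in null embryos by a log2 fold change of 2.71 ± 0.84 (SE) against het (7 null and 7 het embryos, edgeR adjusted p = 0.0682) and of 3.34 ± 0.78 against WT (9 WT embryos, edgeR adjusted p = 0.0117). Against het the call was lost when any one of 8 of the 14 embryos was left out, with edgeR adjusted p between 0.101 and 0.151. Without E2.75 het replicate 2 the difference was larger, at 4.38 with an edgeR adjusted p of 0.00185. Against WT the call held in every fit that left out 1 embryo. By stage, Hist1h4i rose against WT at E2.5 (3.11 ± 0.78, edgeR adjusted p = 0.0847), a call lost in 8 of the 10 fits without 1 embryo (edgeR adjusted p up to 0.226). At E2.75 the difference was 4.19 ± 1.32 (edgeR adjusted p = 0.113), and the test of the difference between stages gave 1.05 ± 1.49 (edgeR adjusted p = 0.889).

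**Figure D2:**
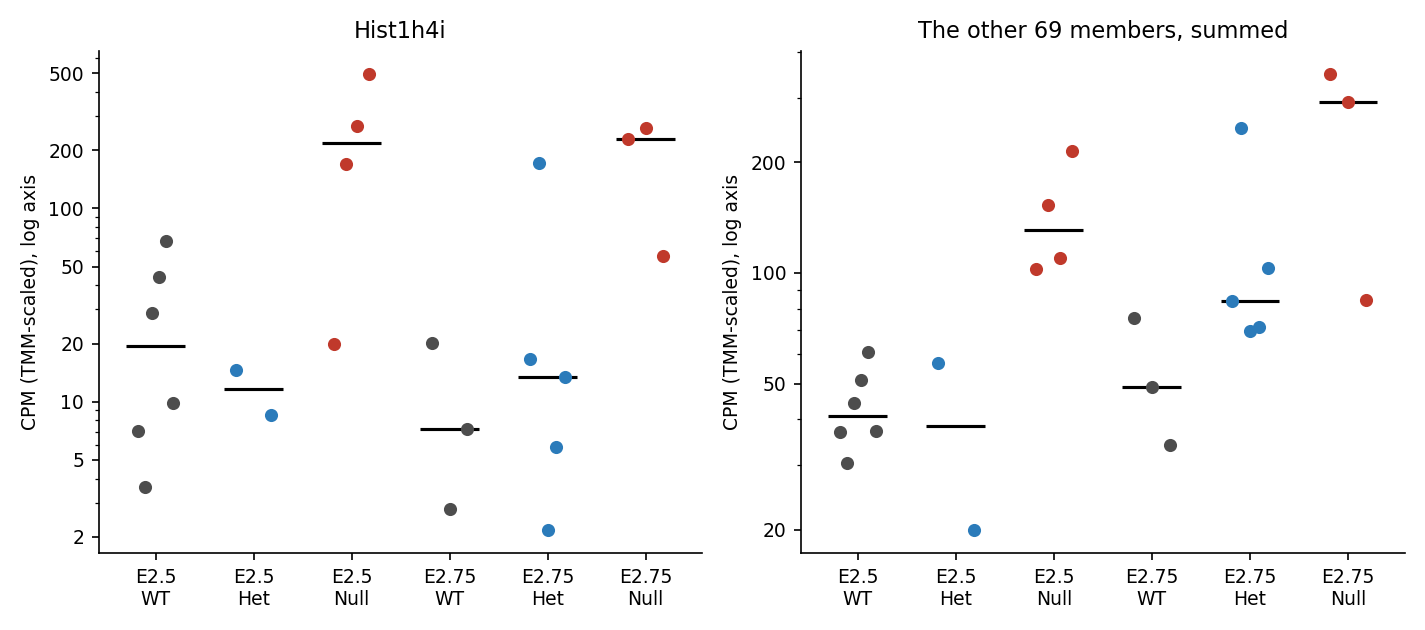
Level in CPM (log axis) of Hist1h4i (left) and of the other 69 members summed (right), 1 point per embryo, by stage and genotype, with bars at group medians. With the TMM scaling plotted here null embryos are mostly highest, with E2.75 het replicate 2 among them at 171 CPM of Hist1h4i and E2.5 null replicate 1 among the controls at 19.9.

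With TMM scaling the rest of the family was also higher in null embryos. With ERCC spike-in scaling the order of the medians against het turned when the stages were pooled, but not within a stage. By TMM the other 69 members summed to 30.3 to 75.4 CPM in WT (median 44.4), 19.9 to 247 in het (median 71.1) and 84.3 to 349 in null embryos (median 153). By TMM every null embryo was above every WT embryo in this sum, and 2 het embryos of E2.75 lay above the lowest null embryo, at 247 CPM (replicate 2) and 103. By ERCC scaling with the stages pooled, the medians of the same sum were 39.7 in WT, 122 in het and 80.8 in null embryos. The lowest null embryo (61.2) lay below the highest WT embryo (92.4). At E2.5 the null median was 70.9 and the het median 60.9, from 2 het embryos at 15.7 and 106. At E2.75 the medians were 288 in null and 159 in het embryos. ERCC-scaled medians were higher at E2.75 in each genotype, and the share of E2.75 embryos was larger in the het group than in the null group. Since bulk RNA of 1 embryo is measured, fewer cells and less RNA per cell cannot be told apart. The share of reads not wholly inside annotated exons moved with genotype in the same libraries, and its part in the sums was not tested. E2.75 het replicate 2 had 26.5% of such reads and 30.4 CPM of Dis3, the lowest het value, and E2.75 null replicate 3, the lowest null embryo at E2.75, had 41.1%.

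**Figure D3:**
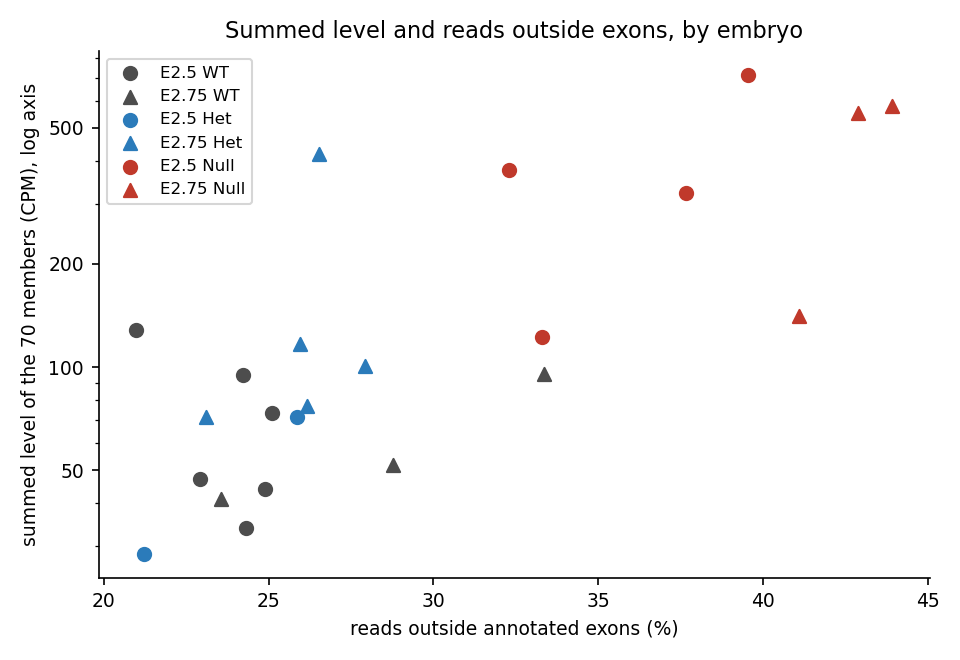
Reads not wholly inside annotated exons (x axis, percent, labelled as outside exons) against the summed level of all 70 members in CPM (y axis, log scale). There is 1 point per embryo, coloured by genotype and shaped by stage. The 7 null embryos are at 32.3% or more and sum to 122 to 714 CPM.

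By class, H4 RNA without Hist1h4i summed to a median of 8.02 CPM in WT, 10.1 in het and 23.8 in null embryos. H3 genes, which encode the core histone that carries many regulatory marks, summed to medians of 3.71, 6.02 and 20.2 CPM. All null embryos were above all WT embryos for H3 (lowest null 11.2, highest WT 6.57). H1 genes, the linker histones, had medians of 10.8, 17.3 and 31.4 CPM. With ERCC scaling the lowest null embryo for H3 (6.69) lay below the highest WT embryo (8.55). For H2B the medians were 15.5, 31.2 and 37.9 CPM, and for H2A 7.46, 15.6 and 21.1. E2.75 null replicate 3 (7.75 and 13.8 CPM) and E2.5 null replicate 3 (14.7 and 35.1) lay inside the WT range of both H2A and H2B, and E2.5 null replicate 1 inside that of H2B (20.3). With ERCC scaling and the stages pooled, the het median was above the null median in every class but H3: 32.3 against 27.7 for H1, 28.8 against 11.9 for H2A, 55.2 against 20.0 for H2B and 17.4 against 16.7 for H4 without Hist1h4i. For H3 it was 11.2 against 12.1. Within each stage the null median by ERCC scaling was above the het median in all these classes, except for H2A at E2.5 (10.1 in null, 15.7 in het).

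A greater number of different members was detected in null embryos, despite their lower depth. Between 36 and 48 members had a count in null, 16 to 42 in WT and 24 to 56 in het embryos. Thinned to the smallest library, the number expected had a median of 36.8 in null, 31.1 in het and 22.1 in WT embryos, and the ranges overlapped. Detection over all genes was not compared here, so these numbers do not show whether the difference is particular to the members.

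After the low-count filter 28 members could be tested with the stages merged. A member expressed mainly in null embryos passed the filter through them, so the counts over tested members describe those genes only. Against het, 3 of 28 members (10.7%) rose and 0 fell, beside 3.67% of all 13415 genes that rose and 2.06% that fell. At an unadjusted p under 0.05 there were 7 members. Against WT, 7 of 28 rose and 0 fell, beside 3.66% of all genes that rose and 1.59% that fell. Median log2 fold changes of the tested members were 1.40 and 2.08, where all genes had 0.02 and −0.02. With ERCC spike-in scaling, which moved the median of all genes against het to −1.08, the tested members had a median of 0.18. Of the 28, 2 rose and 2 fell, beside 289 of all 13415 genes that rose and 4487 that fell. Against WT the same scaling gave 5 risen and 0 fallen members, beside 317 risen and 469 fallen genes. The medians there were 1.78 for the tested members and −0.37 for all genes. Without the filter, 44 of 61 members with counts had a positive difference against het, at a median of 1.12, beside 15326 of 33616 genes. Of 206 tested protein-coding genes outside the family with a single exon, 8.74% rose against het and 10.2% against WT. Het against WT gave 0 calls of members and 0 of all genes by edgeR, with 0 members at an unadjusted p under 0.05. DESeq2 also called 0 members there. Of these 28 members, 25 had a positive difference in that comparison, at a median of 0.99.

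**Figure D4:**
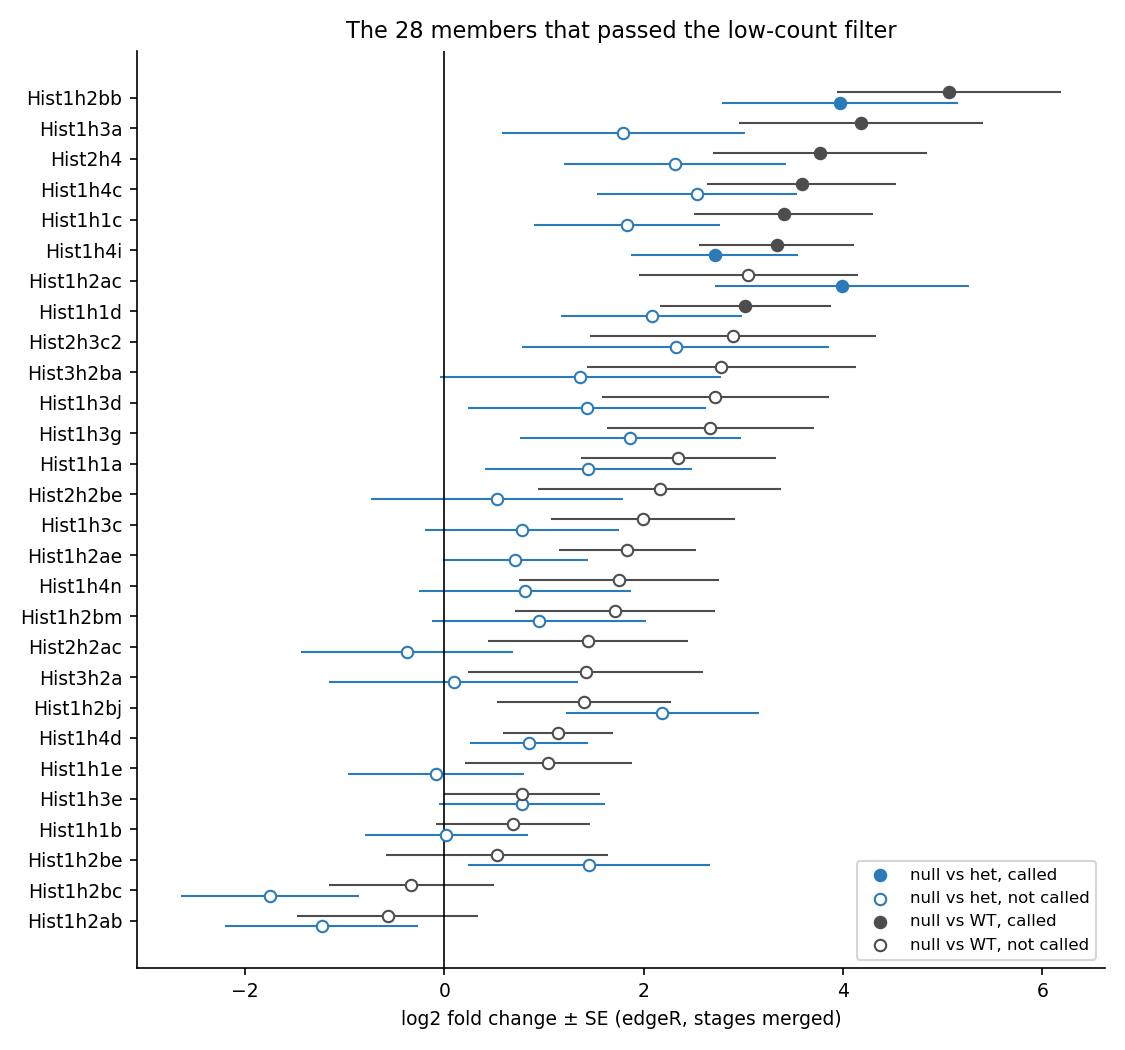
Log2 fold change with its SE for each of the 28 tested members, null against het (blue) and null against WT (grey), stages merged. Filled points passed both thresholds, 3 against het and 7 against WT, and none of them is below 0.

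Calls against het depended on which embryos were included. Without the 2 null embryos under 2000000 counts, 0 members rose against het and 1 fell, and 2 rose against WT, namely Hist1h4i (3.18, edgeR adjusted p = 0.0448) and Hist1h2bb (4.39, edgeR adjusted p = 0.0574). Both embryos left out were of E2.75, so depth, stage and group size cannot be told apart in that fit. Leaving out E2.75 null replicate 1 alone, or E2.75 het replicate 4 alone, also gave 0 risen members against het. Without E2.75 het replicate 2 there were 6.

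Hist1h2bb, which encodes an H2B, had the largest difference against WT with the stages merged. Its CPM were 0 in 5 of the 9 WT embryos, at most 1.44 in WT and at most 1.49 in het, and 3.43, 14.8, 5.19, 9.87, 25.6, 13.3 and 1.25 in the 7 null embryos. Of the null embryos, 6 lay above every control embryo and the other, E2.75 replicate 3, was inside the control range. Its log2 fold change was 3.97 ± 1.18 against het (edgeR adjusted p = 0.0568) and 5.06 ± 1.12 against WT (edgeR adjusted p = 0.00725). At E2.75 it rose in both comparisons, by 4.02 against het and 5.50 against WT (edgeR adjusted p = 0.0956 and 0.0915). Leaving out 1 embryo, the first call was lost in 4 of the 5 fits that tested it (edgeR adjusted p up to 0.346) and the second in 5 of 6 (up to 0.238).

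Hist1h2ac, an H2A gene transcribed divergently from Hist1h2bc, had 0.728, 7.48, 3.66 and 2.82 CPM in E2.5 null embryos and 13.3, 31.8 and 2.49 at E2.75. Het embryos had 0 to 2.41 CPM and WT embryos 0 to 5.37. Its rise against het was 3.99 ± 1.27 (edgeR adjusted p = 0.0787), and 9 of the 14 fits without 1 embryo lost the call.

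Another 5 members rose against WT. Linker histone gene Hist1h1c had 3.66 to 56.7 CPM in null embryos (median 9.25), 0 to 6.02 in WT and 0.371 to 20.2 in het, and its log2 fold change was 3.40 ± 0.90 (edgeR adjusted p = 0.0292). Hist1h1d, another linker histone gene, had 5.68 to 35.0 CPM in null, 0 to 6.23 in WT and 0 to 8.51 in het embryos, and 6 of 7 null embryos were above every control. Both are H1 genes with annotation well beyond the stem-loop. Hist1h4c, an H4 gene, had 2.21 to 13.3 CPM in null and 0 to 1.16 in WT embryos, and was the 1 tested member with no overlap between these groups, a separation found in 1.55% of all genes. No member separated null from het embryos in this way (0 of 28, beside 2.2% of all genes). H4 gene Hist2h4 had 0.850 to 8.72 CPM in null and 0 to 1.44 in WT embryos. Hist1h3a, an H3 gene, was at 0 in 6 of 9 WT embryos and had 0 to 4.23 CPM in null embryos, with replicate 3 at E2.5 at 0. Log2 fold changes of the last 3 were 3.59 ± 0.95, 3.77 ± 1.07 and 4.18 ± 1.22, and all 3 calls were lost without the shallow null embryos.

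At single stages fewer members were called. At E2.5, 0 of 35 members changed against het by edgeR, beside 0% of all genes that rose and 0.0126% that fell. By edgeR 2 members had an unadjusted p under 0.05. DESeq2 called 2 of 31 members there, both risen, beside 456 of 14180 genes that rose and 155 that fell. Only 2 het embryos were available at that stage. Against WT at E2.5, 1 of 35 rose (Hist1h4i) and 0 fell, beside 1.36% and 0.459% of all genes. At E2.75, 1 of 34 rose and 0 fell against het, beside 2.51% and 2.31% of all genes, and 4 rose and 0 fell against WT, beside 2.19% and 2.35%. The 4 were Hist1h2bb, Hist1h1c, Hist1h2bg and Hist2h4. Hist1h2bg, an H2B gene, had 17.7, 19.5 and 0.692 CPM in E2.75 null embryos against 0.266, 0 and 0.101 in WT, and its log2 fold change was 6.68 ± 1.74 (edgeR adjusted p = 0.0633). Hist2h4 was at 0 in the 3 WT embryos of that stage. Leaving out any 1 of the WT embryos removed all 4 calls.

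**Figure D5:**
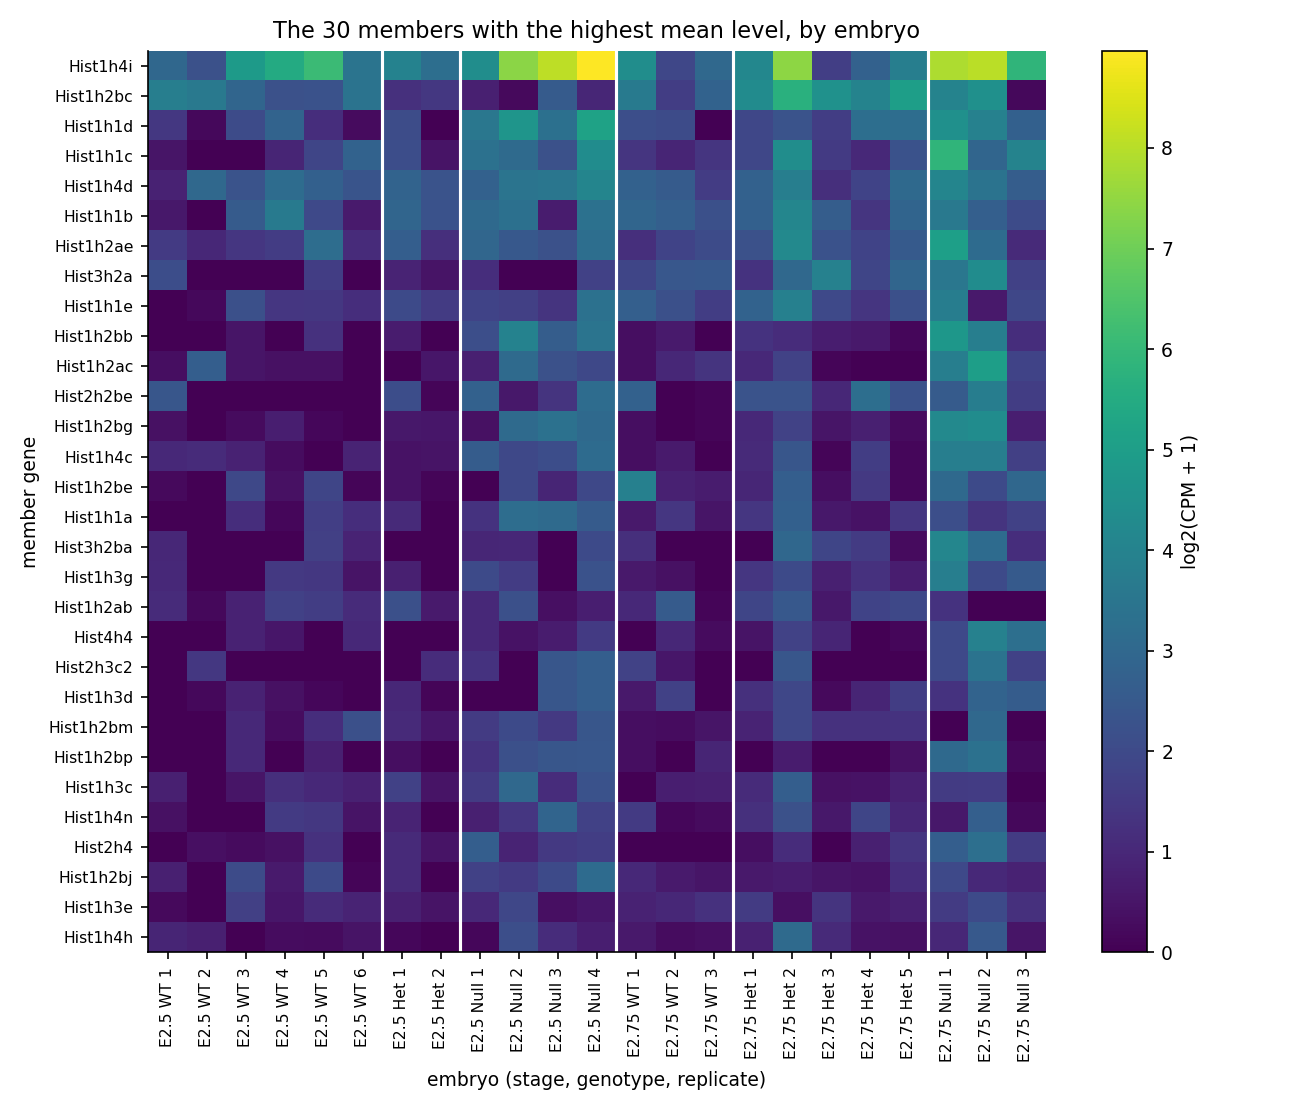
Level of the 30 members with the highest mean, as log2(CPM + 1), in each of the 23 embryos, with white lines between groups. Hist1h4i is brightest in null embryos and in E2.75 het replicate 2, and most other rows are near 0 in WT embryos.

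Hist1h2bc, the H2B gene with the next highest mean level (11.1 CPM), did not follow the others. WT embryos had 3.67 to 13.2 CPM at E2.5, and the 4 null embryos had 0.728, 0.170, 4.88 and 0.940. At E2.75 the null embryos had 15.3, 21.5 and 0.138 CPM, while the 5 het embryos had 15.3 to 50.9. Its annotation differs from most members in having 2 exons, with the last one reaching 8246 bases beyond the stem-loop. The differences were −1.75 ± 0.89 against het and −0.33 ± 0.83 against WT (edgeR adjusted p = 0.315 and 0.921). Without the 2 shallow null embryos it fell by 4.03 on the log2 scale against het (edgeR adjusted p = 0.0251), in a comparison of 4 E2.5 and 1 E2.75 null embryos with 2 E2.5 and 5 E2.75 het embryos.

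Ranked per kilobase of exon, Hist1h4i was again first with a mean of 115 CPM per kb, followed by Hist1h2bc with 9.57 and Hist1h2ae, an H2A gene, with 7.80. Hist1h1b (7.53), Hist1h1c (4.63) and Hist1h1a (2.82) led the H1 genes, and Hist1h3g (3.62), Hist1h3c (2.38) and Hist1h3a (1.77) the H3 genes. Hist1h1d, at rank 3 by CPM, was at rank 33 per kb since its annotated exon is 7425 bases long. Other members among the 12 highest by CPM had differences under the thresholds. Hist1h4d had a median of 5.01 CPM in WT, 5.83 in het and 10.0 in null embryos, with a log2 difference of 1.14 ± 0.55 against WT (edgeR adjusted p = 0.324). Hist1h1b had medians of 3.55, 5.70 and 7.38 CPM, and its difference against het was 0.02 ± 0.82. Hist1h1e had medians of 1.75, 3.07 and 2.50 CPM, Hist3h2a of 2.06, 2.66 and 2.35, and Hist2h2be of 0, 3.80 and 4.93.

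Of the members known from germ cells, Hist1h1a was at rank 16 of 70 by CPM, with 1.46 to 8.33 CPM in null, 0 to 2.16 in WT and 0 to 5.73 in het embryos. Testis linker histone gene Hist1h1t had 3 counts, all in E2.75 het replicate 2, and the testis genes Hist1h2aa and Hist1h2ba had 64 and 35 counts in all embryos.

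Between E2.5 and E2.75, 0 of 45 members changed in WT embryos and 0 of 45 in null embryos by edgeR, beside 3.74% of all genes that rose and 3.64% that fell in WT, and 1.24% and 1.77% in null embryos. At an unadjusted p under 0.05 there were 2 and 4 members, and DESeq2 called 0 and 1. Test of the difference between stages in the null effect called 0 members, with 2 at an unadjusted p under 0.05, and 0 of all 18677 genes. DESeq2 called 0 members there.

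Genes that make, bind or degrade histone transcripts were read from lists, first with the stages merged. Of 19 genes for histone 3′ end processing and export, 0 were called against het or WT by edgeR, with 4 at an unadjusted p under 0.05 in each, and DESeq2 called 1 in each. SLBP's gene had medians of 94.7 CPM in WT, 65.7 in het and 129 in null embryos, with a log2 difference of 0.65 ± 0.32 against het (edgeR adjusted p = 0.305). Lsm11, a subunit of the U7 particle that guides the cut, had a difference of −1.83 ± 0.71 (edgeR adjusted p = 0.161). At E2.75, 1 of the 19 fell against het and 2 against WT: Cstf2, a polyadenylation factor that also acts on histone transcripts, fell in both (−1.26 ± 0.36 and −1.27 ± 0.39, edgeR adjusted p = 0.0757 and 0.0999), and Casp8ap2, a histone locus protein also called FLASH, fell against WT (−1.06 ± 0.28, edgeR adjusted p = 0.0644). Of 10 genes for histone gene transcription, 1 fell with the stages merged: Ccne1, the cyclin that activates the histone locus with CDK2, had a log2 fold change of −1.15 ± 0.28 against het and −1.16 ± 0.27 against WT (edgeR adjusted p = 0.0185 and 0.0120). At E2.75, 2 of the 10 fell in both comparisons: Ccne1, by 1.53 on the log2 scale in each (edgeR adjusted p = 0.00913 and 0.0169), and E2f1, an activator of S phase genes (−2.80 ± 0.76 and −3.27 ± 0.81, edgeR adjusted p = 0.0657 and 0.0549). Npat, the histone locus coactivator, differed by 0.24 ± 0.26 against het. Of 9 tested genes for histone RNA decay 0 were called by edgeR with the stages merged, with 2 against het and 1 against WT at an unadjusted p under 0.05, and DESeq2 called 1 and 0. Over these 38 genes with the stages merged, 2.63% fell against het and 2.63% against WT, beside 2.06% and 1.59% of all genes. At E2.75, 7.89% fell against het and 10.5% against WT, beside 2.31% and 2.35% of all genes.

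Replication-independent histones, whose transcripts carry poly(A) tails, were measured beside the members. H3f3b, an H3.3 gene, had a median of 474 CPM in null and 375 in WT embryos. Of 10 genes tested with the stages merged, H2afj rose (1.10 ± 0.35 against het, 1.28 ± 0.33 against WT) and H2afy, the macroH2A gene, fell against het (−1.92 ± 0.51, edgeR adjusted p = 0.0317). H2afj had an edgeR adjusted p of 0.0795 and 0.0234. By stage, H2afy fell against WT at E2.5 (−1.83 ± 0.48, edgeR adjusted p = 0.0962) and against het at E2.75 (−2.06 ± 0.63, edgeR adjusted p = 0.0981), and H2afj rose against WT at E2.75 (1.95 ± 0.41, edgeR adjusted p = 0.0286). With the stages merged, of 14 histone chaperone genes 0 were called by edgeR or DESeq2, with 3 against het and 1 against WT at an unadjusted p under 0.05. Of 22 S phase genes 1 fell against het, Mcm2 of the replicative helicase (−1.14 ± 0.37, edgeR adjusted p = 0.0808), and 0 were called against WT, where 2 had an unadjusted p under 0.05. With the stages merged, 3.67% of all genes rose and 2.06% fell against het, and 3.66% rose and 1.59% fell against WT.

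Promoters of members were compared with all RefSeq promoters over the 250 bases before the start, since a transcription factor's binding was mapped in the same series. CCAAT (either strand) was in 50 of 61 matched members (82%) and in 34.5% of 27025 promoters. TATAAA was in 37.7% against 8.12%, and an octamer, ATTTGCAT or its reverse complement ATGCAAAT, in 21.3% against 1.61%. POU6F1, a POU homeodomain factor tagged with mCherry, was mapped by ChIP-seq in mouse embryonic stem cells that the authors derived from Dis3 flox/flox blastocysts. The tagged factor was overexpressed from a transfected plasmid and pulled down by its mCherry tag, so the peaks are not of the cells' own POU6F1. A peak of the first list in both replicates lay within 1 kb of the start of 13 of the 70 members (18.6%), against 47.8% of 21974 protein-coding genes. Of the 28 tested members 6 had one (21.4%), against 65.6% of all 13415 genes tested. Peaks came from uniquely mapped reads, which near-identical histone promoters can lose, and the part of this in the shares was not tested. In the second lists it was 2 of the 70 members and 1 of the 28, against 24.0% of tested genes. Per the study's supplement, the control was an IgG pull-down from the same Pou6f1-mCherry cells for the first lists, and an mCherry pull-down from cells given mCherry alone for the second. H4 genes had 5 of the 13 and H3 genes 3. The 13 members shared 11 peaks, with a fold enrichment of 4.98 to 24.0 (median 9.63), where all 15998 shared peaks had a median of 10.6. Hist1h3a and Hist1h4a shared the highest one, chr13:23761126-23761714. Hist1h4i and Hist1h2bb had none.

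The Hist1h1c promoter is printed as one that a peak overlapped, chr13:23738684-23739022 with a fold enrichment of 13.4, which reached into the last 123 of the bases shown. Its 250 bases before the start (RefSeq, GRCm38.p6, chr13:23738557-23738806, plus strand) hold 1 CCAAT, in capitals, and no TATAAA or octamer.
Hist1h1c: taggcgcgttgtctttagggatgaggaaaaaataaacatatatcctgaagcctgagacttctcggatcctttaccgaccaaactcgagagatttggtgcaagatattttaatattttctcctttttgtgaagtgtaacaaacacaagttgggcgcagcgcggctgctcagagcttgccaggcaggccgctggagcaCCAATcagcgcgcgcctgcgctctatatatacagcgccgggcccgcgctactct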

How the data were processed

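RNA-seq libraries of 23 single mouse embryos and ChIP-seq peaks of 2 replicates of transfected POU6F1-mCherry in mouse embryonic stem cells were used. Per the labels and the study's methods, the authors trimmed reads (Cutadapt 3.4), aligned them to GRCm38 (STAR 2.7.8a) and deposited raw counts per gene from HTSeq 0.11.4 in intersection-strict mode without strand; DESeq2 was the authors' test. Unique reads only were counted, so near-identical histone copies and exons inside another gene lose reads. The deposited peak files (Bowtie2 2.4.4, unique reads, MACS2 2.2.7.1) give a score, a fold enrichment (ratio) and −log10 p and q; fold enrichment and −log10 q were used.

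Counts were tested here with edgeR 4.0.16 (R 4.3.3): TMM, filterByExpr, a quasi-likelihood test on all genes, Benjamini-Hochberg adjustment. SE is the log2 fold change over the root of F. DESeq2 1.42.0 was an alternative. Groups came from the labels, and embryos are separate animals of unstated litters. Each fit held all genotypes, with the stages merged or at 1 stage, and genotypes were compared by contrasts within it. Stage comparisons came from a fit of all embryos grouped by genotype and stage. Levels are TMM CPM; ERCC and HTSeq summary rows stayed out of totals. Gene structure, unique windows and stem-loops were read from GENCODE vM21 and GRCm38, and a peak counted when it overlapped a peak of the other replicate. Scripts were tested on simulated data.

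Members and gene lists were chosen with earlier results of these data known. Named members were the 12 highest by mean CPM, those called (up to 10 per direction and comparison) and the 3 highest per kb in each class. Also named were Hist1h1a, Hist1h1t, Hist1h2aa, Hist1h2ba and Hist1h2bb, from a list of 5 set as germ cell genes. Hist1h2bb is not treated as one here. Hist1h2ao and Hist1h4a were added after their values were seen. Genes of the pathway lists were named when called, and Slbp, Lsm11, Npat and H3f3b were named after their values were seen.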

Additional observations from a re-analysis of the deposited data

Results flagged for a closer look

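In 36 groups of 4 to 6 embryos, 10 held 1 embryo far from the rest by Dixon's test. For independent, normally distributed values that test flags about 1 group in 20 by chance. Member levels hold many 0 values, and the sums contain the single genes, so the 10 cannot be set against that rate. Of the 10, 4 were E2.75 het replicate 2. Its summed member level was 419 CPM, where the next het embryo had 116, and without Hist1h4i the sum was 247 CPM against 103. Its Hist1h4i level was 171 CPM against 16.6, and its Hist1h1c level 20.2 CPM against 3.80. It had counts for 56 members and was above the 4 other E2.75 het embryos in 40 of the 57 members with counts in any of them. The share over all genes was not computed, so the number does not show whether this is particular to the members. Hist1h2bc was 4.88 CPM in E2.5 null replicate 3, next to 0.940. Hist1h2ac was 5.37 CPM in E2.5 WT replicate 2, next to 0.413. E2.5 WT replicate 5 was highest for Hist1h2bb (1.44 CPM, next 0.413) and for Hist2h4 (1.44 CPM, next 0.334). Hist1h3a was 0.556 CPM in E2.5 WT replicate 4 with the other 5 embryos at 0, and 0 in E2.5 null replicate 3 with the next embryo at 3.53.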

How the results depend on the processing

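No named member that was called reversed its sign. With ERCC scaling, 14 of 28 tested members had a positive difference against het with stages merged (24 by TMM) and their median was 0.18 (1.40 by TMM). Of all 13415 genes, 1822 had a positive difference with ERCC scaling, and 51.1% by TMM. Members risen against het with stages merged (3) numbered 10 with DESeq2, 7 without the filter and 0 without the 2 null embryos under 2000000 counts, an alternative chosen after seeing the data, which also gave 1 fallen member. DESeq2 tested 47 members there, and 1247 of 18314 genes rose. Without the filter 61 members were tested, and 1266 of 33616 genes rose. ERCC scaling gave 2 risen and 2 fallen members against het, beside 289 risen and 4487 fallen of 13415 genes. Against WT (7) the numbers were 22 with DESeq2, 13 without the filter, 5 with ERCC scaling, 4 with only the 2 genotypes and 2 without the shallow null embryos. Leaving out E2.5 WT replicate 6 as well gave 3. Here DESeq2 tested 49 members, and 1187 of 18935 genes rose. With ERCC scaling 317 of 13415 genes rose. With no filter 61 members were tested, and 2672 of 33616 genes rose. At E2.5 DESeq2 called 2 risen members against het and 5 risen and 1 fallen against WT, no filter gave 1 against het and ERCC scaling 0 against WT. DESeq2 tested 31 and 41 members. Of all genes it called 456 of 14180 risen against het, and 777 risen and 474 fallen of 16418 against WT. No filter (59 members) gave 14 risen genes of 29669, and ERCC scaling (35 members) 52 of 15904. At E2.75 against het (1) DESeq2 gave 6, DESeq2 size factors 2, ERCC scaling 2, no filter 3 and the replicate block 0. Against WT (4) DESeq2 gave 12 and the block 0. Risen genes against het were 956 of 15993 with DESeq2 (42 members tested) and 667 of 29549 without the filter (59 members). Of 14442 genes (34 members), 421 rose with DESeq2 size factors, 330 with ERCC scaling and 41 with the block. Against WT, 1158 of 14996 genes rose with DESeq2 (36 members) and 102 of 14442 with the block. Between stages ERCC scaling gave 2 risen members in WT and 3 in null embryos, no filter 1 fallen in WT and DESeq2 1 risen in null. The cause was not tested.

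Leaving out 1 embryo gave 0 to 6 risen members against het and 6 to 9 against WT with stages merged, 0 to 1 against WT at E2.5, 0 to 4 against het and 0 to 2 against WT at E2.75, and 0 to 1 between stages in WT and in null embryos. It left 0 to 0 in the others. Members with a peak (13) were 2 in the second lists and 5 at a −log10 q of 5. By DESeq2, list genes called were 1 for 3′ processing in each comparison, 1 for decay and 2 for S phase against het, and 2 replication-independent histones against WT. With the replicate number as a block, 3 members rose against het and 6 against WT, beside 371 and 382 of 13415 genes. Embryos that share a number correlated between −0.11 and 0.08, so the numbers pair no embryos. Depth limits single genes, since most members had few counts per embryo.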
